A study of Mus musculus with 6 samples.

Results

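The genes described are 9 that carry, esterify, oxidise, reduce or break down vitamin A in liver, out of 55471 genes in the count tables: Rbp4, Lrat, Rdh10, Rdh11, Rdh16, Dhrs3, Retsat, Aldh1a1 and Cyp26a1. They were taken by name, and were selected on a view of their change between the fasting times in these same libraries. That change is therefore given as a description, with no test. RNA sequencing was done on liver of male C57BL/6J mice, an inbred laboratory strain, all of wild-type genotype. One group was fasted for 4 h and the other for 16 h, with 3 mice and 3 libraries in each. No fed group was used here, so a change is that of the longer relative to the shorter fast.

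Vitamin A circulates as retinol and is stored in liver as retinyl esters, mostly in the lipid droplets of stellate cells. Hepatocytes secrete retinol on the carrier RBP4, which travels in plasma with transthyretin. Inside cells retinol and retinal are interconverted by short-chain dehydrogenases, retinal is oxidised to retinoic acid, and retinoic acid acts through the nuclear receptors RAR and RXR until CYP26 enzymes break it down. Cyp26a1, Dhrs3 and Lrat are themselves known to respond to retinoic acid.

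The window around the start of Cyp26a1 is shown because it was the only one among those of the 9 genes to hold the direct repeat that RAR and RXR bind. RefSeq windows on GRCm38.p6, with 250 bases before and 50 after each start, were found for 8 of the 9 genes (13 windows), all except Rdh10. The pattern searched, on both strands, was a pair of GNTCA, the core of the unit that each receptor of the pair reads, with N for any base. DR5, a repeat of the full unit at a spacing of 5, has 6 bases between the cores and occurred in 0.861% of all 32851 windows. The window of Rarb, a receptor gene known as a retinoic acid target, is set beside it. Capitals mark the repeat, which lies 32 to 17 bases before the start of Cyp26a1 on the reverse strand (chr19:37697558-37697857, plus strand of the genome) and 52 to 37 bases before that of Rarb on the forward strand (chr14:16575427-16575726, minus strand).
Cyp26a1: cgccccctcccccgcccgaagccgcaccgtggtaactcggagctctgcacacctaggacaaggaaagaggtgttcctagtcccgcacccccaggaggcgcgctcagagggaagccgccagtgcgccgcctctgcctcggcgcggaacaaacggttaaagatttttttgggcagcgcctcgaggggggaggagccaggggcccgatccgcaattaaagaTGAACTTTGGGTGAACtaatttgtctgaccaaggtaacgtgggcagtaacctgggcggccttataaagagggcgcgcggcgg
Rarb: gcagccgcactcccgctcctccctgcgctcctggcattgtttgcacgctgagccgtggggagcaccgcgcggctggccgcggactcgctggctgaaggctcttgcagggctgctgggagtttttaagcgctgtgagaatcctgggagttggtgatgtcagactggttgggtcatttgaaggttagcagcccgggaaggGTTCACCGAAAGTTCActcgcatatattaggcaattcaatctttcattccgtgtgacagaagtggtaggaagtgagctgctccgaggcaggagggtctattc
Read in the direction of the repeat, the sites were GTTCACCCAAAGTTCA in Cyp26a1 and GTTCACCGAAAGTTCA in Rarb. DR1 and DR2, with 2 and 3 bases between the cores, occurred in 1.26% and 1.117% of all windows and in none of the 13. The sterol regulatory element TCACNCCAC, added to the search after the fall of Rdh11 was seen, was in 1.24% of all windows and in none of the 13. These letters are a match to a pattern, and no match says only that the letters are not in the window.

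Libraries held 15173653 to 26572532 counts assigned to genes. Levels are in CPM, the gene's counts over a scaled library size, and changes are log2 of 16 h over 4 h ± SE from edgeR, with 3 libraries per group. The hepatocyte transcript Alb was at 54516 to 68167 CPM in the 6 libraries. Replicate 3 of the 4 h fast carried lung transcripts: its 9 lung markers summed to 189 CPM, against 5.93 to 8.62 CPM in the other libraries. Among all 13812 genes tested, 9.18% were higher and 9.51% lower at an edgeR adjusted p under 0.05. In 39.4% of them the 3 libraries of one group lay wholly above those of the other, 19.7% in each direction. Of the 9 genes the libraries stood apart upward in 4 and downward in 2. Since the list was drawn up from this contrast, nothing is read from these counts.

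**Figure D1:**
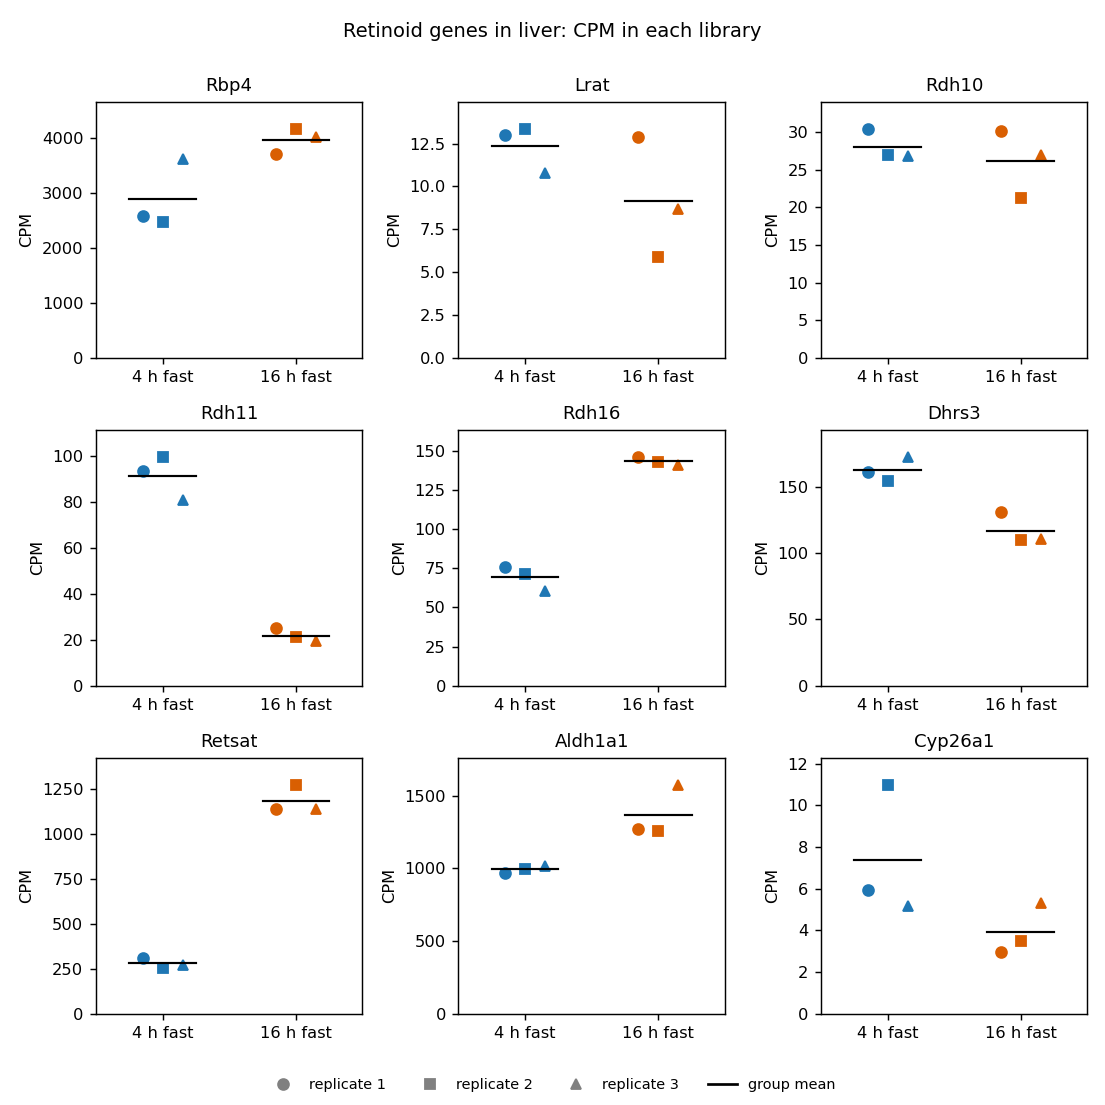
CPM (vertical axis, from 0) of the 9 retinoid genes in each library after a 4 h or 16 h fast; symbols are replicates and the line is the group mean. Retsat, Rdh16, Aldh1a1 and Rbp4 lie higher in all 3 libraries of the longer fast, Rdh11 and Dhrs3 lower, and Lrat, Rdh10 and Cyp26a1 overlap between the groups.

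Retsat had the widest rise among the 9 genes. It encodes retinol saturase, an enzyme of the endoplasmic reticulum that saturates a double bond of retinol, and lies on chromosome 6 at 72598475 to 72608425 of GRCm38. Its level was 311, 257 and 273 CPM in the 4 h libraries and 1138, 1272 and 1142 CPM in the 16 h libraries. The lowest long-fast liver stood far above the highest short-fast liver. The change was 2.08 ± 0.12, or 4.22-fold, with a range of 2.03 to 2.18 over fits that omitted 1 library. An antisense gene, Gm45053, covers 18.4% of its exon bases, and the strand setting of the counts is not given in the sources used here.

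Rdh11 was the mirror image in size. It encodes a microsomal dehydrogenase that reduces retinal, and lies on chromosome 12 at 79174337 to 79192293. Its CPM were 93.4, 99.4 and 80.7 after 4 h and 24.9, 21.1 and 19.5 after 16 h. All short-fast livers exceeded all long-fast livers by a wide margin. The group means were 91.1 ± 9.54 and 21.8 ± 2.79 CPM (SD, n = 3), 4.17-fold lower after the longer fast (-2.06 ± 0.13).

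The patterns of these genes over the 6 libraries were compared with those of all other tested genes, by the root mean square difference of centred log2 (CPM + 1). Of 13811 genes the nearest to Rdh11 was Hsd17b6 (0.093 log2 units), another gene of retinol and steroid oxidation that went from 195 to 45.8 CPM. Next came Cyp2c70 (0.13), a bile acid hydroxylase that went from 496 to 119 CPM. The nearest to Retsat were Slc16a5 (0.16), a transporter of the monocarboxylate family, and the ion channel gene Asic5 (0.17), which went from 4.25 to 20.4 and from 7.37 to 29.8 CPM. Such likeness over 2 groups of 3 mostly reflects the difference between the group means.

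Rdh16, a dehydrogenase that oxidises retinol and some steroids, lies on chromosome 10 at 127801152 to 127846565. It stood at 76.0, 71.5 and 60.4 CPM after 4 h and at 146, 143 and 141 CPM after 16 h. The long-fast livers were nearly identical to each other, with a coefficient of variation of 1.64% against 11.6% in the short-fast livers. Its change was 1.05 ± 0.11, or 2.07-fold. Rdh16 belongs to a cluster of close copies: its coding sequence is 96.3% identical to that of Rdh9, with a longest shared run of 229 bases, and 91.5% to that of Rdh16f2, with a run of 49 bases. How reads that match several copies were handled is not given in the sources used here, so values in this cluster are uncertain.

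Rdh10, the dehydrogenase best known for making retinal for retinoic acid synthesis, is on chromosome 1 at 16105774 to 16133734. Its CPM were 30.4, 26.9 and 26.8 after 4 h and 30.2, 21.2 and 27.05 after 16 h. The groups overlapped, and replicate 2 of the longer fast was lowest. The change was -0.10 ± 0.14. Without 16 h replicate 2 the change was 0.028.

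Dhrs3 reduces retinal back to retinol and is active together with RDH10. On chromosome 4 at 144892827 to 144928209, it had 161, 154 and 172 CPM after 4 h and 131, 109.7 and 111 CPM after 16 h. The long-fast livers were lower without overlap. The change was -0.47 ± 0.11, and lay between -0.55 and -0.42 in fits that left out 1 library.

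Aldh1a1, a retinaldehyde dehydrogenase that makes retinoic acid, is on chromosome 19 at 20492715 to 20643465. It was at 967, 994 and 1017 CPM after 4 h and at 1268, 1259.95 and 1571 CPM after 16 h. Its short-fast livers were close together and all lay below the long-fast livers, of which replicate 3 was the highest. The change was 0.46 ± 0.12, and was smallest, at 0.35, without 16 h replicate 3. The coding sequence of Aldh1a1 is 91.7% identical to that of Aldh1a7, with a longest shared run of 100 bases, so the values of this pair are uncertain for the same reason as those of the Rdh16 cluster.

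Cyp26a1, which clears retinoic acid, lies on chromosome 19 at 37697798 to 37701536 and was rare. Its counts were 161, 170 and 99 after 4 h and 66, 58 and 129 after 16 h. These correspond to 5.92, 10.96 and 5.17 CPM and to 2.94, 3.49 and 5.31 CPM. Replicate 2 of the shorter fast stood well above the rest, and the highest long-fast liver overlapped the lowest short-fast liver. The change was -0.88 ± 0.31. Omitting 4 h replicate 2 gave -0.48, and omitting 16 h replicate 3 gave -1.18.

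Rbp4, the plasma carrier of retinol, is on chromosome 19 at 38116629 to 38125281. Its CPM were 2584, 2473 and 3626 after 4 h and 3717, 4159.9 and 4022 after 16 h. All long-fast livers were higher, but replicate 3 of the shorter fast, the library with lung transcripts, came close to them. The change was 0.45 ± 0.15, and 0.66 without that library. Whether the lung transcripts have a part in the value of that library was not tested.

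Lrat, the enzyme that esterifies retinol for storage, is a marker of stellate cells and lies on chromosome 3 at 82892579 to 82903973. It was at 12.985, 13.3 and 10.8 CPM after 4 h and at 12.9, 5.91 and 8.69 CPM after 16 h. One long-fast liver was level with the short-fast livers and the others were below them. The change was -0.42 ± 0.24. Without 16 h replicate 1 it was -0.74, and without 16 h replicate 2 it was -0.19. The 15 stellate cell markers listed, which do not include Lrat, summed to 398, 326 and 325 CPM after 4 h and to 355, 230 and 300.3 CPM after 16 h. Replicate 2 of the longer fast thus had the lowest sum as well as the lowest Lrat and Rdh10. The sum of sinusoidal endothelial markers in that library was also the lowest, at 115 CPM against 119 to 152 CPM in the other libraries. Its sums of Kupffer cell markers (102 CPM) and bile duct markers (37.7 CPM) were not the lowest. Those of 16 h replicate 3 were 91.9 and 37.3 CPM. Of 14 stellate markers tested, none was called higher by edgeR or DESeq2 (1 before adjustment) and 2 lower (5 before adjustment), the collagen genes Col1a1 (-1.46 ± 0.25) and Col3a1 (-1.70 ± 0.27), picked after their values were seen. Over all genes tested edgeR called 9.18% higher and 9.51% lower. Col1a1 and Col3a1 are part of the stellate sum. Their mean levels went from 22.7 to 8.21 CPM and from 49.8 to 15.3 CPM. Much of the gap between the groups in that sum therefore comes from them. The other 12 markers tested were not called by edgeR, and their changes had both signs (from -0.54 in Des to 0.53 in Pdgfra). The most abundant stellate marker, Dcn, was at 89.9 ± 16.8 and 97.1 ± 12.5 CPM (SD, n = 3). In bulk liver, fewer stellate cells and less RNA per cell cannot be told apart, and the part of cell number in the values of Lrat was not tested.

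**Figure D2:**
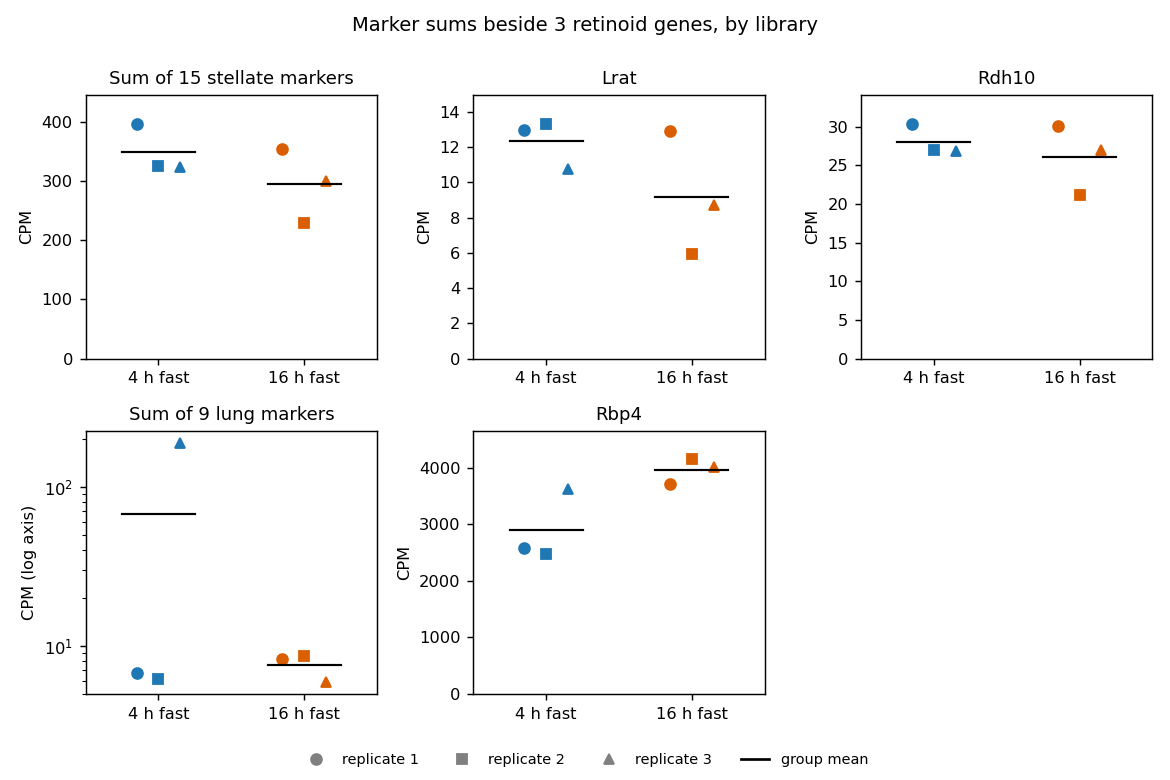
CPM by library of the summed stellate cell markers, the summed lung markers (log axis) and 3 retinoid genes; symbols are replicates and the line is the group mean. Replicate 2 of the 16 h fast is lowest in the stellate sum (230 CPM), Lrat and Rdh10, and replicate 3 of the 4 h fast is highest in the lung sum (189 CPM) and highest of its group in Rbp4.

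Levels of the 9 genes can be compared with each other only per length, here as CPM per kb of all annotated exon bases of a gene. Rbp4 was by far the highest, at 2155 ± 474 after 4 h and 2954 ± 169 after 16 h (SD, n = 3), which was 84.8% and 81.0% of the sum over the 9 genes. After 4 h the order below it was Aldh1a1 (201 ± 5.01), Retsat (79.2 ± 7.82), Dhrs3 (55.5 ± 3.13), Rdh11 (26.4 ± 2.76), Rdh16 (11.1 ± 1.29), Rdh10 (6.75 ± 0.490), Cyp26a1 (3.71 ± 1.59) and Lrat (2.31 ± 0.261). The libraries of each neighbouring pair in this order did not overlap. With unscaled library totals those of Cyp26a1 and Lrat did overlap after 4 h. After 16 h Retsat (335 ± 21.6) stood above Aldh1a1 (277 ± 35.9), and its part in the sum had gone from 3.12% to 9.19%. Rdh16 (23.1 ± 0.378) stood above Rdh11 (6.32 ± 0.808), and the libraries of Rdh11 and Rdh10 (6.28 ± 1.09) overlapped, as did those of Cyp26a1 (1.97 ± 0.626) and Lrat (1.71 ± 0.658). Taken per kb of the transcript with the longest coding sequence, Aldh1a1 stayed above Retsat after 16 h (579 against 391 CPM per kb). The order of that pair after the longer fast thus depends on the length used.

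**Figure D3:**
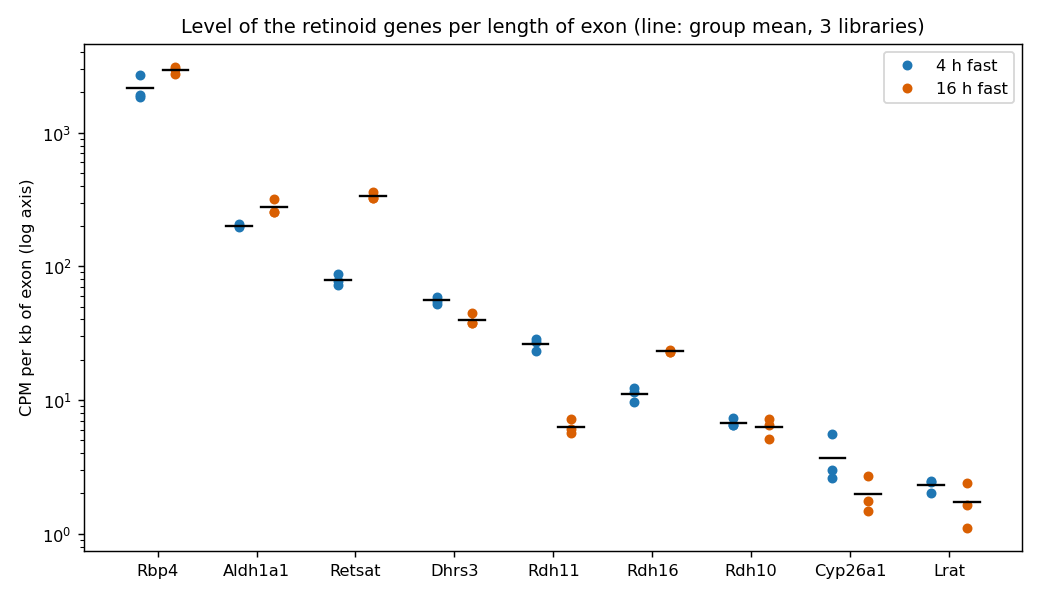
CPM per kb of exon (log axis) of the 9 genes, ordered by their 4 h mean; points are libraries and lines are group means. Rbp4 lies above all others, Retsat passes Aldh1a1 on this scale after 16 h, and Rdh11 drops from above Rdh16 to the level of Rdh10.

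A wider set of 51 genes of retinoid handling was listed by role, without the 9, and 36 of them had enough counts to test. In these, 5 were higher after 16 h, 13 were lower and 18 did not pass, against 9.18% and 9.51% of all genes tested. Their median change was -0.26 and that of all genes -0.028. These role lists too were chosen with earlier results of these data known. Nothing about the pathway as a whole, or about any role in it, is therefore read from the counts or the median. The same shares, 9.18% higher and 9.51% lower, stand beside the counts by role given below. The carriers and carotenoid-cleaving enzymes had 2 lower and 2 that did not pass in edgeR, and 3 lower before adjustment. None was higher in edgeR, in DESeq2 or before adjustment. Ttr, the transthyretin that holds RBP4 in plasma, fell from 5785, 5546 and 6972 CPM to 3067, 3144 and 3501 CPM (-0.91 ± 0.13, edgeR adjusted p = 6.47e-04). Each short-fast liver was above each long-fast liver, the reverse of the order seen for Rbp4. Bco2, which cleaves carotenoids, was -0.43 ± 0.13, a call lost without any 1 of the libraries except 4 h replicate 3. Stra6l, a receptor for RBP4 in liver, did not pass (150.4 ± 30.3 and 142 ± 9.17 CPM). Rbp2 and Crabp1 had 0 of 125286659 counts, which allows up to 0.0239 CPM.

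Genes that make or split retinyl esters, all with wider roles in lipid metabolism, went both ways, with 2 higher and 3 lower of 5 tested. Dgat1, an acyltransferase that can esterify retinol, rose by 0.54 ± 0.14 and the hydrolase Ces1d, the most abundant of them, from 536 ± 39.7 to 746 ± 85.8 CPM (0.48 ± 0.12). Lpl, the lipoprotein lipase, fell from 62.8 ± 3.81 to 27.5 ± 3.97 CPM (-1.18 ± 0.12, edgeR adjusted p = 1.03e-04). Ces1g (-0.65 ± 0.17) and Lipe (-0.65 ± 0.16, with 15.6% of its exon bases under an antisense gene) also fell. The calls of Dgat1 and Ces1d were lost without 16 h replicate 2 or 3, that of Lipe without 16 h replicate 2, and that of Ces1g without 4 h replicate 1 or 2 or 16 h replicate 1 or 2.

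The other retinol and retinal oxidoreductases had 3 higher, 6 lower and 4 that did not pass, of 13 tested. Hsd17b6 fell from 176, 230.1 and 178 CPM to 51.3, 44.1 and 42.0 CPM (-2.09 ± 0.14, edgeR adjusted p = 8.43e-06), as far as Rdh11. Its livers were apart by a wide margin. Among the alcohol dehydrogenases, Adh1, the abundant liver form that clears retinol, fell from 1263 ± 231 to 712 ± 32.4 CPM (-0.83 ± 0.14), Adh7 by 0.65 on the log2 scale and Adh4 by 0.53. The call of Adh4 was lost without 4 h replicate 2 or 16 h replicate 2 or 3.

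Within the cluster of Rdh16, Rdh16f2 fell from 119 ± 3.11 to 70.0 ± 2.94 CPM (-0.77 ± 0.10, edgeR adjusted p = 4.05e-04), while Rdh9 rose from 3.11 ± 0.244 to 5.50 ± 0.106 CPM (0.82 ± 0.18, edgeR adjusted p = 0.00825). Rdh9 rests on 46 to 131 counts per library, and 64.1% of its exon bases lie under Rdh16f1. Rdh7, the most abundant of the role, did not pass (1442 ± 164 and 1324 ± 25.05 CPM). The lipid droplet enzyme Hsd17b13 rose from 386 ± 11.1 to 568 ± 41.4 CPM (0.56 ± 0.11), and the mitochondrial Rdh13 by 0.71 ± 0.16. Rdh5 was at -0.62 ± 0.15, with 25.6% of its exon bases shared with Bloc1s1. The call of Rdh13 was lost without 16 h replicate 2 or 3, and that of Rdh5 without 4 h replicate 2 or 16 h replicate 1 or 3.

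Retinal oxidation beyond Aldh1a1 had 2 lower and 2 that did not pass, and none was higher in edgeR, in DESeq2 or before adjustment. The aldehyde oxidase Aox3, the most abundant of them, fell from 829 ± 32.1 to 444 ± 59.5 CPM (-0.90 ± 0.12, edgeR adjusted p = 6.12e-04). Aldh1a7, the close copy of Aldh1a1, went from 255, 248 and 235 CPM to 178, 133 and 185 CPM (-0.58 ± 0.13, edgeR adjusted p = 0.0119), opposite in direction to Aldh1a1, with the uncertainty of reads shared by this pair given above. Its call was lost without 16 h replicate 2. Cyp26b1, the other retinoic acid hydroxylase with enough counts, did not pass (2.75 ± 0.0884 and 3.63 ± 0.979 CPM).

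None of the 6 receptor genes passed in edgeR or in DESeq2. At an unadjusted edgeR p under 0.05, 1 was higher, Rxra, and 2 were lower, Rara and Rarg. Rara was at -0.33 ± 0.14 (edgeR adjusted p = 0.112) and Rarg at -0.47 ± 0.20 (edgeR adjusted p = 0.118). Rxra, the main RXR of liver, was at 399, 415 and 414 CPM after 4 h and at 455, 490.1 and 505 CPM after 16 h (0.24 ± 0.10, edgeR adjusted p = 0.129). The groups did not overlap, and the 95% interval, unadjusted, ran from 0.012 to 0.46. Of the 5 listed retinoic acid targets tested, some of which also stand in another role, edgeR called none. Before adjustment 1 was higher, and DESeq2 called 1 higher, Nrip1, which encodes a nuclear receptor corepressor. Rarb, which carries the repeat shown above, had 6 to 30 counts per library and did not pass (0.23 ± 0.41, with an unadjusted 95% interval from -0.68 to 1.13). In addition 38.4% of its exon bases lie under antisense genes. Cdx1 was at 0 in all libraries.

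**Figure D4:**
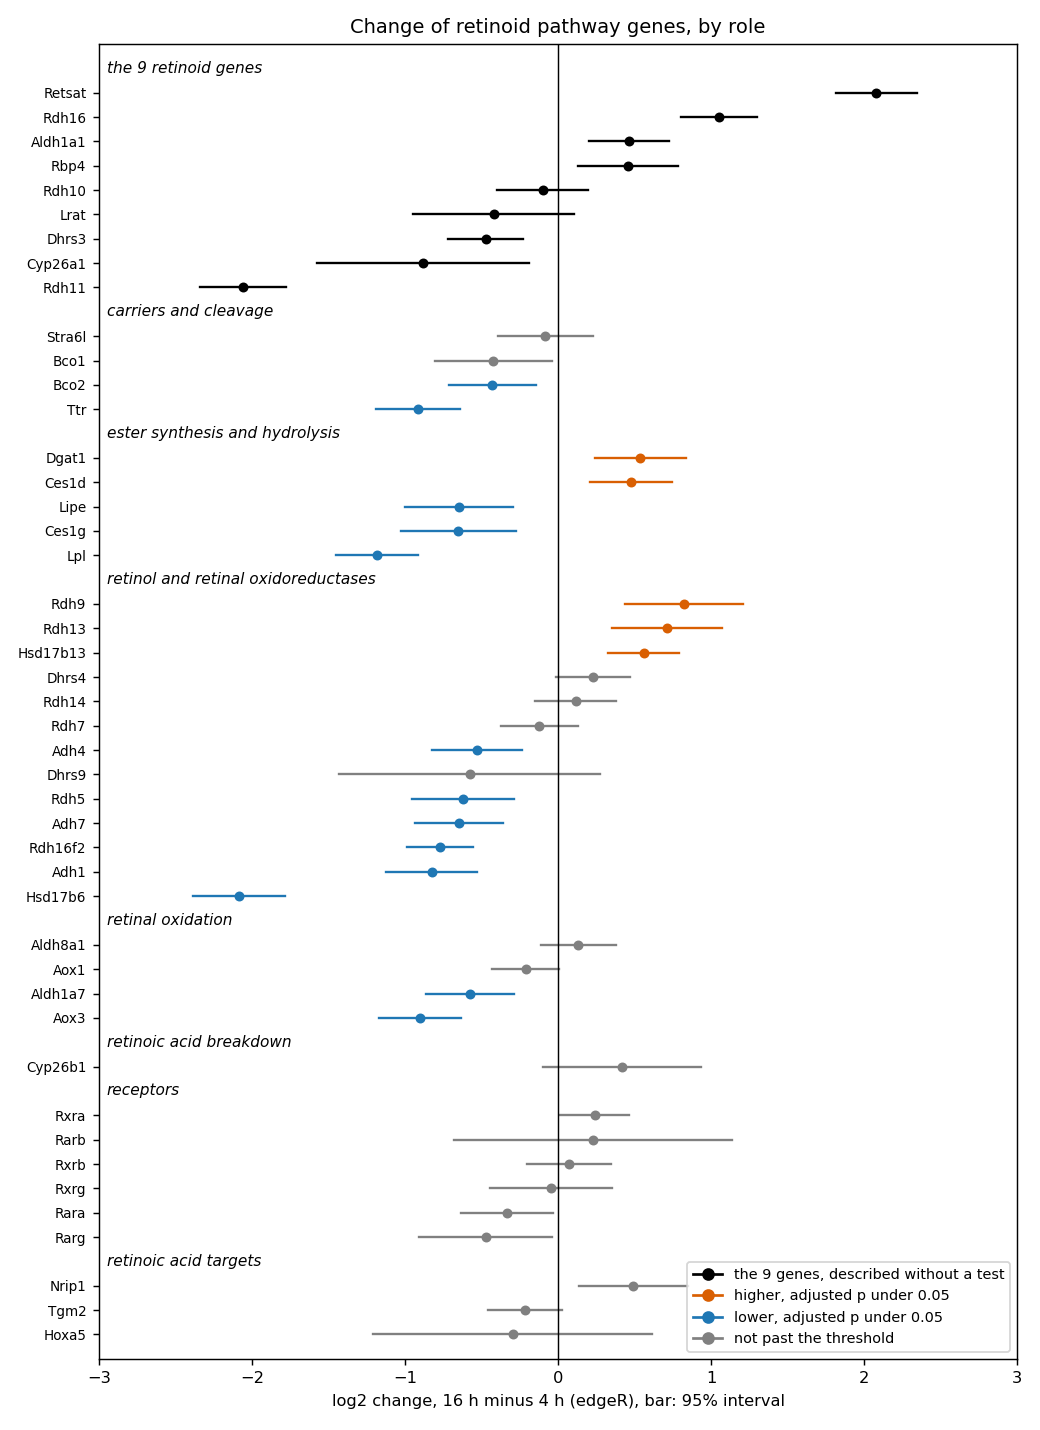
log2 change from 4 h to 16 h with its 95% interval (edgeR), for the 9 genes in black. The 36 other tested retinoid genes stand by role, coloured by call, and genes of 2 lists are drawn once. The 9 genes carry no call, and their intervals make no allowance for their selection on this contrast. Hsd17b6 lies as far left as Rdh11, and the intervals of the 6 receptors hold 0 or lie close to it.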

How the data were processed

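Liver RNA of 6 mice was sequenced, 1 library each. Per the series' design text and the submitters' processing notes, the authors trimmed reads with Trimmomatic, aligned them with STAR to GRCm38 (mm10) and counted them with HTSeq. No source used here gives versions, the annotation release or the strand setting. What the authors deposited are raw counts per gene, not normalized. Lines that name no gene stayed out of library sizes: reads outside genes were 6.44% to 7.14% and ambiguous reads 5.78% to 6.59% of each table.

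Symbols, positions and exon lengths came from GENCODE M21 (GRCm38), which held 55144 of 55471 identifiers (99.4%). Genes kept by filterByExpr (13812, with 99.9% of counts) entered edgeR 4.0.16 (R 4.3.3): TMM scaling, robust quasi-likelihood fit, fasting group as the only term, 2-sided p adjusted by Benjamini-Hochberg over all of them, threshold 0.05. Alternatives were DESeq2 1.42.0, other scalings and filters, a replicate block and leaving out each library. No pair of libraries of the same group agreed within counting noise (chi-square per degree of freedom at least 17.3 over genes with at least 50 counts). Upper limits for 0 counts use 3 counts and cover counting error only. Coding sequences were aligned end to end with Biopython 1.88, and promoter windows are from RefSeq.

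The 9 genes and all lists were chosen with earlier results of these data known. Named are the 9 genes, each called gene, the most abundant gene and genes at 0 of each role list, the most abundant gene of marker lists used, and nearest patterns by the stated measure. Lists of sinusoidal endothelial, Kupffer, bile duct, neutrophil, red cell and zonal hepatocyte markers were also counted. Protein sequences were not used here, and 1 further gene of the wider set is not reported here.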

Additional observations from a re-analysis of the deposited data

How the results depend on the processing

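Replicates shared a number between the groups, but the deviations of same-numbered libraries correlated at only 0.12, 0.098 and 0.074, not all above 0.1, so the numbers were not taken as pairs, though each library correlated best with its own number. With a replicate block, and with DESeq2, 6 genes of the wider set were called higher and 13 lower, and with no filter 7 and 14. Leaving out single libraries gave 2 to 6 higher and 8 to 14 lower of the wider set, with 2 higher and 8 lower without 16 h replicate 2, and 2 higher and 10 lower without 16 h replicate 3. Over all genes the fits without 1 library called 671 to 1594 higher and 696 to 1393 lower, the fewest without 16 h replicate 3. The changes of the 9 genes moved by less than the spread between replicates in all 54 values from other scalings, filters, tools and the block (Rbp4 0.48 with the block). Of 54 values without 1 library, 53 did so with the same sign, and Rdh10 changed sign (0.028 without 16 h replicate 2, range -0.21 to 0.028). Omitting 1 of 3 libraries can hardly move a group mean by more than that spread, so this count cannot show stability. Without 1 library Lrat ran from -0.74 to -0.19 and Cyp26a1 from -1.18 to -0.48. In the wider set the sign changed only in genes not called: Stra6l (0.11 without 4 h replicate 2, range -0.19 to 0.11), Rarb (-0.029 without 4 h replicate 2, range -0.029 to 0.62) and Rxrg (0.053 without 4 h replicate 3 and 0.065 without 16 h replicate 2, range -0.15 to 0.065). The cause was not tested. Nrip1 was called with DESeq2, with no filter, with the block and without 4 h replicate 2 (0.50, 0.51, 0.50 and 0.59). Dhrs4 (0.32) and Dhrs9 (-0.91) were called without 4 h replicate 3. Without scaling for length, Lrat was the 8th and Cyp26a1 the 9th of the 9 genes after 4 h. Counts per library, which limit precision, were low for Cyp26a1 (58 to 170), Lrat (98 to 353) and Rarb (6 to 30).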

Other observations

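Stra6, the membrane receptor for RBP4 outside liver, had 20 counts in replicate 3 of the longer fast and 0 in each of the 5 other libraries. It was picked after its values were seen, and in that library its level was 0.823 CPM. Among hepatocyte markers by position in the lobule, 3 of 13 pericentral genes were called higher and 3 lower, and 2 of 10 periportal genes higher and 3 lower. Over all genes tested 9.18% were called higher and 9.51% lower, and nothing is read from the counts of these marker lists. Cyp2e1, the most abundant pericentral gene, rose from 5944 ± 416 to 9587 ± 517 CPM (SD, n = 3; 0.69 ± 0.11), while Ass1, the most abundant periportal one, did not pass (3417 ± 569 and 3982 ± 636 CPM). Neither edgeR nor DESeq2 called any of 7 sinusoidal endothelial, 5 bile duct, 3 neutrophil or 5 lung genes tested. Before adjustment edgeR placed 1 endothelial gene higher, and 1 bile duct and 1 neutrophil gene lower. Of 7 Kupffer cell genes 1 was lower by edgeR and 3 by DESeq2. Of 5 red cell genes 1 was lower: Alas2, the most abundant, fell from 99.2 ± 4.16 to 46.7 ± 4.27 CPM (-1.09 ± 0.11). The globin genes of that list were not called, though each had a negative change. Before adjustment edgeR placed 2 genes of the list lower, Alas2 and Hba-a2 (-0.84 ± 0.32). Hbb-bs, the highest of them, was at 30.3 ± 7.02 and 17.4 ± 11.2 CPM (-0.82 ± 0.61). Whether red cell content has a part in the fall of Alas2 was not tested.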
